A study of Mus musculus with 2 samples.

Results

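The cadherin superfamily genes followed here were Cdh2, Cdh4, Cdh8, Cdh9, Cdh10, Cdh11, Cdh12, Cdh13 and Cdh18, 9 of the 30431 genes listed in the count matrices. They were taken by symbol, each symbol matched 1 row, and all 9 were detected in both libraries. The libraries hold RNA counts of single nuclei from dorsal hippocampal area CA1 of male C57BL/6J mice that carried the alleles Calb1::Cre and Tdtomato, in the epilepsy group and in the controls. The epilepsy group received kainate at 5 mg/kg by hourly injection until status epilepticus, was given diazepam at 4 mg/kg, and was sampled 12 weeks after status in the chronic phase. The controls received vehicle (saline or DMSO), were otherwise handled alike, and were sampled 12 weeks after it. All mice were 6 to 7 weeks old at treatment. The labels name 2 mice per condition and 1 library per condition, and do not say whether a library holds 1 mouse or both. A difference between the conditions is therefore a difference between 2 libraries with no replicate check, and every interval below covers counting error only. Cre in this line follows the calbindin gene. The labels mention a sort of nuclei but no selection by the Tdtomato reporter.

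Classical cadherins are calcium-dependent adhesion proteins of the cell surface that bind cadherins of a neighbouring cell and couple to actin inside the cell through catenins. The type I members are Cdh2 (N-cadherin), found at most excitatory synapses, and Cdh4 (R-cadherin). Cdh8, Cdh9, Cdh10, Cdh11, Cdh12 and Cdh18 belong to the type II group, whose members differ between neuron types and take part in matching synaptic partners. In the hippocampus Cdh9 is known from dentate granule neurons and their contacts on CA3. Cdh13 (T-cadherin) is an atypical relative that is held in the membrane by a lipid anchor, has no cytoplasmic tail and so does not bind catenins. The label "classical" thus covers 8 of the 9 genes.

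The control library held 3661 nuclei with 11858162 UMIs (unique molecular identifiers, 1 per captured RNA molecule) and the epilepsy library 3078 nuclei with 7112131 UMIs, at medians of 3447 and 2443 per nucleus. The libraries shared 16 cell barcodes. After doublet removal 3551 and 2985 nuclei were kept. Deep CA1 pyramidal-like nuclei numbered 724 and 521 in control and epilepsy, and superficial ones 1169 and 973. Interneurons fell into MGE-like nuclei (82 and 60), Adarb2 nuclei with low Cnr1 (56 and 36) and CCK-like nuclei (33 and 32). Another 26 and 15 interneuron-like nuclei matched none of these subtypes and enter no ratio between subtypes. Granule-like nuclei were 154 in control and 14 in epilepsy. Names rest on marker genes and no cadherin was used to cluster. The collagen gene Col11a1, a marker of deep nuclei, stood at 550 and 521 CPM in deep-like nuclei and at 31.3 and 54.2 in superficial-like ones, and Calb1 at 7.25 and 12.5 against 44.3 and 37.7. CPM is the gene's UMIs per 1000000 UMIs of the class. Another 464 and 424 nuclei stayed unnamed. RNA outside its own cells was plain in both libraries: the 9 CA1 pyramidal markers stood in oligodendrocyte-like nuclei at a median of 58.4% and 57.3% of their pyramidal level, and in microglia-like nuclei at 86.8% and 63.6%. In MGE-like nuclei that median was 12.9% and 14.8%. Cadherin values in glia-like nuclei are therefore given beside those in neurons. They can hold RNA of the glia as well as free RNA, and the part of free RNA in the results was not tested. For Cdh10 the oligodendrocyte-like level was 121% and 120% of the CA1 pyramidal one, above the median share of those markers. Also above it in both libraries were Cdh2 at 104% and 82.7% and Cdh18 at 62.4% and 80.8%. So were Cdh9 at 129% and 74.6% (7 and 4 UMIs) and Cdh13 at 142% and 67.7% (8 and 4 UMIs). Cdh4, Cdh8, Cdh11 and Cdh12 were not above it in both.

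The bases before the start sites of Cdh9 and Cdh10 are shown because these neighbouring genes had opposite differences between the CA1 sublayers. In the GENCODE M21 annotation of GRCm38, Cdh9 lies at chr15:16728756-16857094 and Cdh10 at chr15:18818947-19014236, both on the plus strand. The sequences are RefSeq's on GRCm38.p6, run 5′ to 3′ on the plus strand, and capitals mark matches to the E-box CANNTG, which reads the same on both strands.
Cdh9 (chr15:16728665-16728755): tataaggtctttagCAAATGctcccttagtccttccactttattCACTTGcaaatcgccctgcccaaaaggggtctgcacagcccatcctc
Cdh10 (chr15:18820079-18820328): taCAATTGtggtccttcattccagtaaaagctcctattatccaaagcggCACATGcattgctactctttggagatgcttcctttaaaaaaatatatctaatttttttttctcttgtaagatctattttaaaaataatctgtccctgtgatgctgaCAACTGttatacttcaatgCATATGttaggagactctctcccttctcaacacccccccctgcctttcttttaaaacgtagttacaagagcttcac
The Cdh9 stretch ends where a GENCODE exon begins, and the Cdh10 stretch lies in an intron of a longer GENCODE transcript. RefSeq start sites were at hand for 5 of the 9 genes. Over the full 250 bases before the start there were 3 matches for Cdh9, 4 for Cdh10, 1 each for Cdh8 and Cdh12 and 0 for Cdh18. Of 32841 windows of the same length, 66.2% held at least 1 match and 31.8% held 2 or more. A match describes letters only and was not tied to any factor.

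The other type II genes lie on chromosomes 15 and 8. Cdh12 (chr15:20449265-21589533) and Cdh18 (chr15:22549022-23474418) follow Cdh10 on the plus strand. Cdh8 (chr8:99024471-99416471) and Cdh11 (chr8:102632095-102785642) are on the minus strand of chromosome 8, which also holds Cdh13 (chr8:118283733-119324921, plus strand). Cdh4 lies at chr2:179442431-179899373 on the plus strand and Cdh2 on chromosome 18. All 9 are annotated as protein-coding.

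The type I genes differed in where they stood. Cdh2 was alike in both CA1 sublayers: in deep-like nuclei it was 152 CPM (exact Poisson 95% interval 138 to 168) in control and 147 (127 to 169) in epilepsy, and in superficial-like nuclei 145 (134 to 157) and 157 (142 to 173). CCK-like nuclei were the highest of the named interneuron subtypes for Cdh2, at 263 (174 to 383) and 252 (149 to 398), and MGE-like nuclei the lowest, at 74.4 (47.1 to 112) and 77.9 (40.3 to 136). Those intervals do not overlap in either library. Oligodendrocyte-like nuclei stood at 152 and 130 CPM, close to the pyramidal classes. For Cdh4 in control the order over 5 neuron classes was MGE-like first, at 123 (86.9 to 169), then CCK-like at 68.3 (27.4 to 141), deep-like at 30.9 (24.5 to 38.4), superficial-like at 21.2 (17.1 to 26.1) and granule-like last, at 6.59 from 2 UMIs. The intervals of neighbours in that order overlap, while those of MGE-like and deep-like nuclei do not. In epilepsy CCK-like nuclei stood above MGE-like ones for Cdh4, at 266 (160 to 415) against 149 (94.7 to 224), with intervals that overlap. Cajal-Retzius-like nuclei, outside that order and only 8 and 6 in number, had 999 and 2276 CPM from 10 and 9 UMIs. Low-Cnr1 Adarb2 nuclei had 3 Cdh4 UMIs in control and 0 in epilepsy, where 0 allows up to 38.5 CPM.

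Cdh8, Cdh10, Cdh11 and Cdh12 were the type II genes well detected in CA1 pyramidal nuclei. In superficial-like nuclei of the control Cdh8 was at 534 CPM, Cdh10 at 453, Cdh11 at 528 and Cdh12 at 419, and in the epilepsy library at 443, 363, 367 and 369. Cdh9 and Cdh18 were scarce there, at 23.1 and 63.6 CPM in control and 25.9 and 63.6 in epilepsy. These levels are not corrected for gene length, so each gene is compared across classes only with itself. Microglia-like nuclei of the control stood at 429 CPM for Cdh8, 399 for Cdh10, 449 for Cdh11 and 409 for Cdh12. These were close to the pyramidal levels, at 43, 40, 45 and 41 UMIs in 36 nuclei. In epilepsy microglia-like nuclei stood at 213, 319, 283 and 230 CPM, from 12, 18, 16 and 13 UMIs in 39 nuclei. Those were below the superficial-like levels, most so for Cdh8 and Cdh12.

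**Figure D1:**
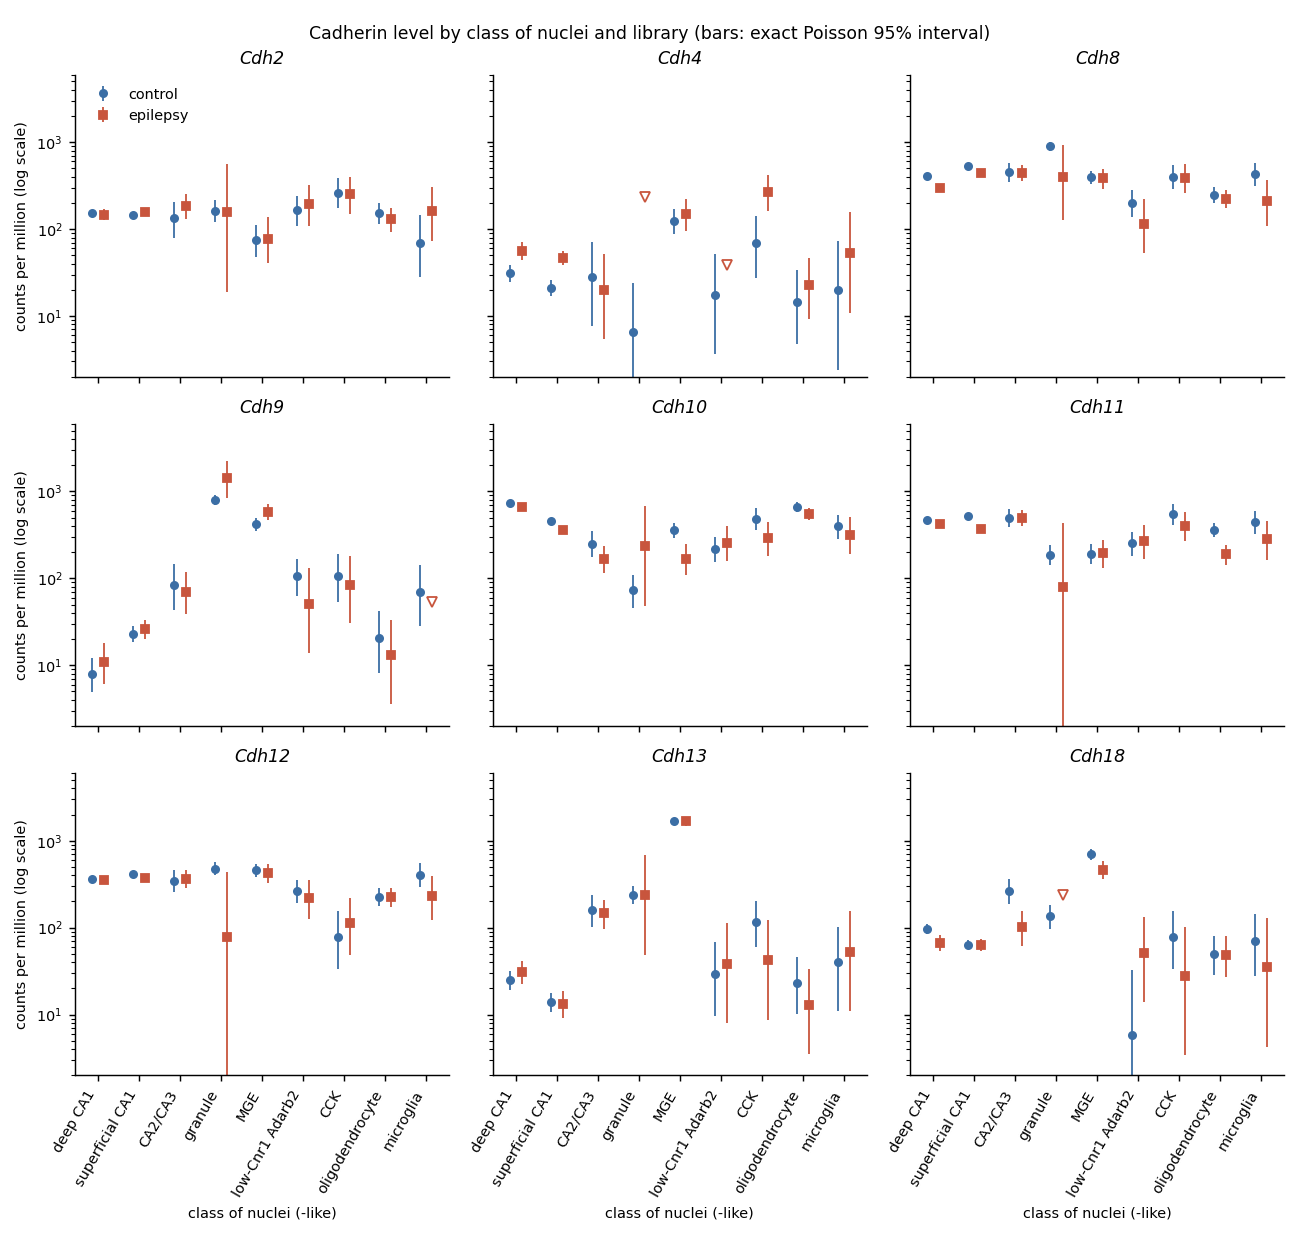
Level of each cadherin gene in CPM (log axis) in 9 classes of nuclei, control as circles and epilepsy as squares, with exact Poisson 95% intervals (bars reaching below the axis are clipped) and open triangles at the limit that 3 counts set where there were 0 UMIs. Cdh13 and Cdh18 peak in MGE-like interneurons and Cdh9 in granule-like nuclei.

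Between the CA1 sublayers the cadherins split. Cdh9 was higher in superficial-like nuclei, and Cdh10 and Cdh13 in deep-like ones, by over 1.5-fold in each library. Cdh9 stood at 23.1 CPM (98 UMIs) in superficial-like against 8.01 (21 UMIs) in deep-like nuclei of the control, and at 25.9 (66 UMIs) against 11.0 (15 UMIs) in the epilepsy library. That is 2.88-fold (95% interval 1.79 to 4.87) in control and 2.35-fold (1.33 to 4.44) in epilepsy. Both superficial values lie above both deep values. Oligodendrocyte-like nuclei had 20.4 and 13.0 CPM of Cdh9 and microglia-like nuclei 69.8 (7 UMIs) and 0, so the deep level did not exceed that of oligodendrocyte-like nuclei in either library. Markers of granule nuclei, where Cdh9 was abundant, summed to 23.6 and 26.4 CPM in deep-like and 18.4 and 33.8 in superficial-like nuclei, with 6 and 4 of 7 markers above 0 in the former and 5 and 5 in the latter. Thinning to 1000 UMIs leaves out nuclei with fewer UMIs. After it the Cdh9 log2 ratios were 1.19 and 1.09, from 33 and 35 UMIs and with intervals that hold 0.

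Cdh10 was the reverse and rests on many more molecules. In deep-like nuclei it was 728 CPM (696 to 762) in control and 667 (624 to 711) in epilepsy, and in superficial-like nuclei 453 (433 to 474) and 363 (340 to 387). The deep level was 1.61-fold (1.51 to 1.71) higher in control and 1.84-fold (1.67 to 2.01) higher in epilepsy. With nuclei thinned to 1000 UMIs, 45.7% and 45.1% of deep-like nuclei held a Cdh10 UMI against 32.2% and 30.1% of superficial-like ones, from 83.6%, 74.9%, 73.4% and 56.5% before thinning. Oligodendrocyte-like nuclei, with 659 and 549 CPM of Cdh10, gave 36.0% and 30.8% after thinning and 48.7% and 36.7% before it, at median depths of 846 and 612 UMIs against 3713 and 2668 in deep-like and 3669 and 2644 in superficial-like nuclei. The thinned deep share was above that of oligodendrocyte-like nuclei in both libraries and the superficial share was not. The oligodendrocyte-like shares rest on only 75 and 52 nuclei with at least 1000 UMIs, so this order is uncertain. Within the superficial class Cdh10 was uneven as well: nuclei of a cluster led by Grik4 and Pcdh7 had a log2 ratio of -0.28 (-0.41 to -0.15) and -0.52 (-0.71 to -0.33) to those of a cluster led by Tenm3 and Lingo2.

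Cdh13 was scarce in pyramidal nuclei, with 65 and 42 UMIs in deep-like and 59 and 34 in superficial-like nuclei. Its deep level was 1.78-fold (1.23 to 2.58) higher in control and 2.31-fold (1.43 to 3.74) higher in epilepsy. Its level in oligodendrocyte-like nuclei, 23.3 and 13.0 CPM, was close to the deep-like level in control (24.8) and below it in epilepsy (30.8). Microglia-like nuclei had 39.9 and 53.1 CPM, from 4 and 3 UMIs, above the deep-like level in both libraries. Interneuron markers, whose cells hold much Cdh13, summed to 48.4 and 66.8 CPM in deep-like and 57.5 and 78.2 in superficial-like nuclei, with 0 and 2 of 7 at 0 in the former and 1 of 7 in the latter. After thinning the Cdh13 log2 ratios of superficial to deep fell short of 1.5-fold, at -0.44 and -0.56, with intervals that hold 0.

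Cdh8 was higher in superficial-like nuclei, at log2 ratios of 0.38 (0.28 to 0.49) and 0.58 (0.42 to 0.75), short of 1.5-fold in both libraries, narrowly so in epilepsy. Cdh18 was higher in deep-like nuclei of the control, at a log2 ratio of superficial to deep of -0.61 (-0.86 to -0.35), but stood near 0 in epilepsy, at -0.07 (-0.45 to 0.32). For Cdh4 the ratios were -0.54 (-0.99 to -0.09) and -0.29 (-0.71 to 0.15), for Cdh12 0.20 (0.08 to 0.31) and 0.04 (-0.11 to 0.21), and for Cdh2 -0.07 and 0.10 with 0 inside both intervals. Whether a sublayer ratio differed between the libraries was not tested, since each condition has 1 library. In all, 1 of 9 genes was past 1.5-fold in both libraries toward superficial-like nuclei, beside 5.45% of the 7159 genes that reached 50 UMIs in each library, and 2 of 9 toward deep-like nuclei, beside 3.13%. Those UMIs are summed over both sublayers, and Cdh9 reached 50 through superficial-like nuclei alone. Inside the superficial class Cdh4 had log2 ratios of the Grik4 cluster to the Tenm3 cluster of 0.75 (0.07 to 1.47) and 0.65 (0.05 to 1.28).

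**Figure D2:**
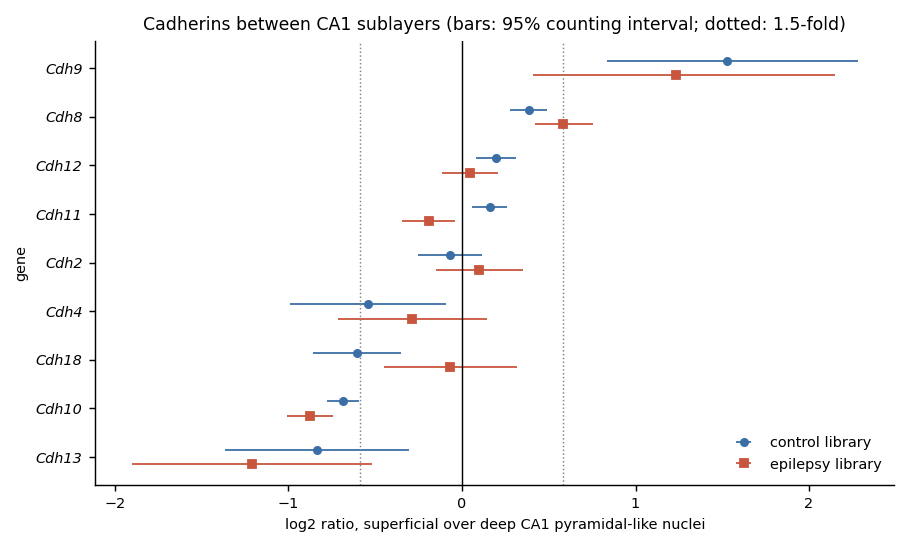
Log2 ratio of superficial-like to deep-like CA1 pyramidal nuclei for each cadherin gene, control as circles and epilepsy as squares, with 95% counting intervals and dotted lines at 1.5-fold. Cdh9 lies right of the upper line and Cdh10 and Cdh13 left of the lower line in both libraries, and Cdh11 lies on opposite sides of 0.

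Of the 17 catenins and other intracellular partners, 12 could be measured between sublayers. Of these, 2 were past 1.5-fold in both libraries, both toward deep-like nuclei, beside 3.13% of 7159 genes. Toward superficial-like nuclei it was 0 of 12, beside 5.45%. These counts of a short list are a description only. Plekha7, an adherens junction protein that binds p120 catenin, had log2 ratios of superficial to deep of -2.80 (-3.28 to -2.34) and -1.74 (-2.26 to -1.24). Vcl (vinculin), which links catenins to actin, had -0.67 (-0.88 to -0.46) and -0.75 (-1.01 to -0.50). Pkp4, a relative of p120 catenin, leaned to superficial-like nuclei at 0.62 and 0.48, as did Ctnna2, the neuronal alpha-catenin, at 0.25 and 0.32. Of 10 further classical cadherins 3 could be measured, and Cdh7 was higher in superficial-like nuclei, at 1.91 (1.11 to 2.80) and 1.48 (0.44 to 2.70). That is 1 of 3 past 1.5-fold toward superficial-like nuclei, beside 5.45% of genes, and 0 of 3 toward deep-like ones, beside 3.13%. Cdh6 was at 0.53 (0.27 to 0.80) and 0.25 (-0.09 to 0.60), and the epilepsy interval holds 0.

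Interneuron subtypes differed in which cadherins they held. The MGE markers do not separate the subtypes by their sum, which was 4365 and 3143 CPM in MGE-like and 3939 and 3722 in low-Cnr1 Adarb2 nuclei. Nxph1 was 3874 and 3632 CPM of the latter, where Sox6 stood at 17.6 and 38.5 CPM against 385 and 331 in MGE-like nuclei, Satb1 and Sst were at 0, and Lhx6 had 7 and 4 UMIs. The 7 markers of low-Cnr1 Adarb2 nuclei do not separate them from CCK-like nuclei by their sum either. It was 4361 and 4415 CPM in the former and 25095 and 22307 in the latter. Adarb2 is on the lists of both. MGE-like nuclei carried Cdh13 at 1665 CPM (1524 to 1815) in control and 1682 (1483 to 1900) in epilepsy. Low-Cnr1 Adarb2 nuclei had 29.3 and 38.5 CPM of it, from 5 and 3 UMIs, and CCK-like nuclei 117 and 41.9, from 12 and 3. The log2 ratio of MGE-like nuclei to the other 2 subtypes together was 4.74 (4.05 to 5.53) and 5.39 (4.25 to 6.85). Interneuron-like nuclei outside the named subtypes had 260 and 148 CPM of Cdh13, 195 and 148 of Cdh18 and 1483 and 519 of Cdh8. A Cdh13 UMI was found in 75.6% and 75.0% of MGE-like nuclei and in 11.1% and 7.69% of microglia-like ones, or in 55.8% and 59.3% against 6.67% and 6.25% after thinning to 1000 UMIs. The median depths before thinning were 4103 and 2498 UMIs against 3002 and 745. Thinning kept 77 and 54 MGE-like nuclei and 30 and 16 microglia-like ones.

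Cdh18 had the same high class, at 698 CPM (608 to 798) and 461 (360 to 582) in MGE-like nuclei, against 1 and 4 UMIs in low-Cnr1 Adarb2 nuclei and 8 and 2 in CCK-like ones. Its log2 ratios to the other 2 subtypes were 4.41 and 3.52. Cdh9 followed at 417 (348 to 496) and 584 (470 to 718) CPM, with ratios of 1.97 and 3.13, and Cdh12 at 459 and 422 CPM, with ratios of 1.24 and 1.34. Cdh11 was lower in MGE-like nuclei, at 191 and 195 CPM, with ratios of -0.93 and -0.78. So 5 of 7 genes with 50 UMIs in each library were past 1.5-fold for MGE-like nuclei in both libraries, beside 26.9% of 991 genes. CCK-like nuclei were high in Cdh11, at 546 (413 to 709) and 405 (271 to 582) CPM, and low in Cdh9, Cdh12, Cdh13 and Cdh18, which makes 5 of 7 beside 26.4%. Low-Cnr1 Adarb2 nuclei were low in Cdh8, Cdh9, Cdh13 and Cdh18, 4 of 7 beside 27.7%, and none was high. The 3 comparisons share nuclei, so a gene high in 1 subtype counts as low in others. The 50 UMIs are summed over the subtypes, and Cdh9, Cdh13 and Cdh18 reached them through MGE-like nuclei alone in both libraries. In the other 2 subtypes together Cdh9 had 29 and 10 UMIs, Cdh13 17 and 6, and Cdh18 9 and 6. In the epilepsy library Cdh8 and Cdh12 also reached 50 through MGE-like nuclei alone, with 37 and 25 UMIs in the other 2 subtypes together. These counts are therefore a description only.

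Finer clusters inside the MGE-like class took different cadherins, and they are named here by number and leading genes. Cluster 0 (45 and 28 nuclei, with Crhbp and Moxd1) carried Cdh13 at 1904 and 1676 CPM together with Cdh18 at 1022 and 670. Cluster 2 (24 and 20 nuclei, with the peptide gene Sst) carried Cdh13 at 1972 and 2537 CPM with Cdh9 at 858 and 1337 and Cdh8 at 880 and 885, but had 2 and 5 UMIs of Cdh18. Cluster 5 (13 and 12 nuclei, with Aox3 and Hs3st2) carried Cdh12 at 910 and 1130 CPM with Cdh18 at 804 and 580, less Cdh13, and 0 Cdh8 UMIs in either library. In control the Cdh8 interval in cluster 2 was 697 to 1097 CPM, and the 0 in cluster 5 allows up to 63.5 CPM. These clusters were made without the 9 genes, and the values are a description of small groups of nuclei from 2 libraries.

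**Figure D3:**
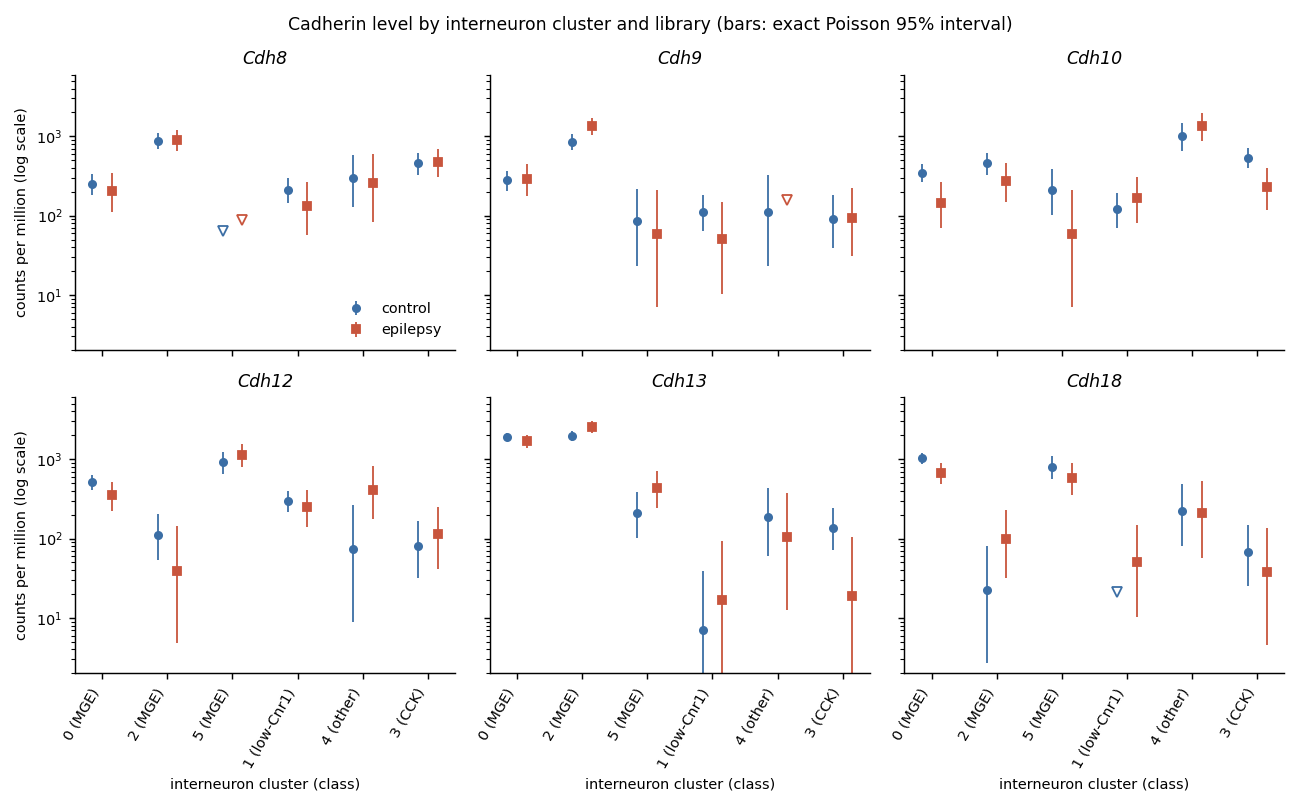
Level in CPM (log axis) of 6 cadherin genes in 6 interneuron clusters, 3 of them MGE-like, control as circles and epilepsy as squares, with exact Poisson 95% intervals (clipped at the axis) and open triangles where there were 0 UMIs. Cluster 2 is high in Cdh8, Cdh9 and Cdh13, cluster 5 in Cdh12 and Cdh18, and cluster 0 in Cdh13 and Cdh18.

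Granule-like nuclei had a cadherin profile of their own in control. Cdh9 stood at 795 CPM (697 to 901, 241 UMIs), against 15.8 CPM over all CA1 pyramidal-like nuclei, a log2 ratio of 5.66 (5.35 to 5.97). In the 14 epilepsy nuclei it was 1414 CPM (838 to 2234), from 18 UMIs. A Cdh9 UMI was present in 64.9% of the control granule-like nuclei, at a median depth of 1995 UMIs, and in 13.9% of microglia-like nuclei. Cdh13 was also higher than in CA1 pyramidal-like nuclei, at 237 CPM and a ratio of 3.85 (3.42 to 4.27), as were Cdh8 at 893 CPM and 0.90 (0.72 to 1.08) and Cdh18 at 135 CPM and 0.77 (0.28 to 1.22). Cdh10 was lower, at 72.5 CPM and -2.91 (-3.59 to -2.31), Cdh11 at 188 CPM and -1.42 (-1.82 to -1.04), and Cdh4 at 2 UMIs. These are 7 of 9 genes past 1.5-fold, beside 47.0% of 9575 genes. The 50 UMIs needed are summed over both classes. Of the called genes, Cdh4, Cdh10 and Cdh18 reached them through CA1 pyramidal-like nuclei alone, with 2, 22 and 41 UMIs in granule-like ones. The count is therefore a description only. The CA1 pyramidal markers stood in granule-like nuclei at a median of 12.5% of their pyramidal level, near the 13.3% of Cdh10. Granule-like nuclei held 3112 CPM of Adarb2, also a marker of interneurons, and 49.5 CPM of the GABA enzyme gene Gad1.

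Between the conditions Cdh4 was the gene that stood out in CA1 pyramidal nuclei, and it was higher in the epilepsy library. In deep-like nuclei it went from 30.9 CPM (24.5 to 38.4, 81 UMIs) in control to 56.5 (44.6 to 70.7, 77 UMIs), a log2 ratio of 0.87 (0.40 to 1.34) or 1.83-fold. In superficial-like nuclei it went from 21.2 CPM (17.1 to 26.1, 90 UMIs) to 46.3 (38.4 to 55.5, 118 UMIs), 1.13 (0.72 to 1.54) or 2.19-fold. The epilepsy value exceeded the control value in the Grik4 cluster at 1.07 (0.59 to 1.56), in the Tenm3 cluster at 1.18 (0.39 to 1.98) and in the remaining CA1 nuclei at 0.95 (0.44 to 1.47). No interval of those 5 groups reached 0. The Grik4 and Tenm3 clusters together make up the superficial-like class, so the groups overlap, and all come from the same 2 libraries. No other member was past 1.5-fold in deep-like or superficial-like nuclei. The share of superficial-like nuclei with a Cdh4 UMI was 7.36% and 10.3%, and 1.72% and 3.66% after thinning, against 2.21% and 1.92% of oligodendrocyte-like nuclei, and 1.33% and 0% after thinning. The median depths were 3669 and 2644 UMIs against 846 and 612. The thinned oligodendrocyte-like shares rest on the 75 and 52 nuclei that held at least 1000 UMIs. For deep-like nuclei the thinned shares were 3.91% and 4.71%, and the thinned log2 ratio was 0.33 (-0.49 to 1.15).

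Beside this stood the following levels of other cells. Cdh4 was 14.6 CPM (5 UMIs) and 22.8 (7 UMIs) in oligodendrocyte-like and 19.9 (2 UMIs) and 53.1 (3 UMIs) in microglia-like nuclei. Markers of Cajal-Retzius cells, a class of 8 and 6 nuclei that held 10 and 9 Cdh4 UMIs, summed to 7.63 and 16.2 CPM in deep-like and 9.43 and 21.2 in superficial-like nuclei, so the sum moved with Cdh4. Of the 6 markers, 1 and 4 were at 0 in deep-like and 3 and 1 in superficial-like nuclei. Reln, the largest part of the sum, was 5.34 and 15.4 CPM in deep-like and 6.36 and 14.9 in superficial-like nuclei, Trp73 was above 0 in each of these groups, and Lhx1 was at 0 in each. Interneuron markers summed to 48.4 and 66.8 CPM in deep-like and 57.5 and 78.2 in superficial-like nuclei. Their part in the Cdh4 difference was not tested. In interneurons the Cdh4 ratio was 0.28 (-0.53 to 1.07) in MGE-like nuclei and 1.96 (0.65 to 3.45) in CCK-like nuclei, the latter from 7 and 19 UMIs. The CCK-like class holds cluster 3 (25 and 18 nuclei) and cluster 6 (8 and 14 nuclei), and Cdh4 was 45.7 and 132 CPM in the former and 201 and 648 in the latter.

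The type II genes common in pyramidal nuclei stood lower in the epilepsy library by less than 1.5-fold in the deep-like and superficial-like classes. Cdh8 went from 409 to 295 CPM in deep-like nuclei, a log2 ratio of -0.47 (-0.64 to -0.30), and from 534 to 443 in superficial-like nuclei, -0.27 (-0.38 to -0.17). It was also lower in microglia-like nuclei, at 429 and 213 CPM (43 and 12 UMIs) and a ratio of -1.01 (-2.07 to -0.06), and in oligodendrocyte-like nuclei its ratio was -0.14 (-0.62 to 0.33). For Cdh11 the superficial-like ratio was -0.52 (-0.64 to -0.41), from 528 to 367 CPM, and the deep-like ratio -0.17 (-0.32 to -0.03), from 473 to 419. Inside the superficial class it was -0.67 (-0.82 to -0.53) in the Grik4 cluster and -0.30 (-0.48 to -0.13) in the Tenm3 cluster. Cdh11 was also lower in oligodendrocyte-like nuclei of the epilepsy library, at 364 and 189 CPM, a ratio of -0.95 (-1.43 to -0.49), and at 449 and 283 CPM in microglia-like nuclei. Cdh10 had ratios of -0.13 (-0.24 to -0.01) and -0.32 (-0.43 to -0.21), and Cdh12 -0.03 (-0.19 to 0.13) and -0.18 (-0.30 to -0.07), deep-like first. Their intervals overlap 0 for Cdh12 in deep-like nuclei alone. Cdh18 stood apart by sublayer, from 96.9 to 66.8 CPM and -0.54 (-0.90 to -0.19) in deep-like nuclei against 63.6 and 63.6 CPM in superficial-like ones, a difference that was not tested. In the remaining CA1 nuclei Cdh8 was at -0.66 (-0.85 to -0.47) and Cdh18 at -0.99 (-1.45 to -0.54). Cdh2, Cdh9 and Cdh13 had intervals that hold 0 in both sublayers.

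In deep-like nuclei 1 of 8 members with at least 50 UMIs was past 1.5-fold higher in epilepsy, beside 5.32% of 7083 genes, and 0 of 8 past it lower, beside 8.65%. In superficial-like nuclei 1 of 9 was higher, beside 7.14% of 8935 genes, and 0 of 9 lower, beside 5.69%. With so few genes neither count stands apart from the background. The members' median log2 ratio was -0.09 in deep-like nuclei, where the median over all genes was -0.04, and -0.06 in superficial-like nuclei, where it was 0.01.

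MGE-like interneurons had 2 of 8 members past 1.5-fold, both lower in epilepsy, beside 14.0% of 1575 genes in either direction. Cdh10 went from 359 CPM (295 to 432, 111 UMIs) to 169 (110 to 247, 26 UMIs), a log2 ratio of -1.09 (-1.76 to -0.46). It was lower in each of the 3 MGE-like clusters, from 348 to 146 CPM in cluster 0, from 457 to 275 in cluster 2 and from 212 to 58.0 in cluster 5, although the intervals of the libraries overlap in each. CA1 pyramidal markers, whose cells hold much Cdh10, summed to 954 and 994 CPM in MGE-like nuclei, with 2 and 3 of 9 at 0, while Cdh10 over all CA1 pyramidal-like nuclei was 546 and 459 CPM. The class's own 6 MGE markers summed to 4365 and 3143 CPM and the 7 interneuron markers to 9958 and 8254, with 0 at 0 in either, so both sums were lower in epilepsy together with Cdh10 and Cdh18. Nxph1, which is on both lists, made up 3531 and 2377 CPM. The part of these cells in the Cdh10 and Cdh18 differences was not tested. Cdh18 went from 698 to 461 CPM, -0.60 (-1.01 to -0.21), with 1022 and 670 in cluster 0 and 804 and 580 in cluster 5. For the whole class that ratio was past 1.5-fold in 4 of 9 other processings, and it was -0.49 with nuclei thinned to 1000 UMIs. Cdh9 was higher, at 0.49 (0.08 to 0.89), and Cdh13 level, at 0.01 (-0.21 to 0.23). Among 3 measurable members 0 were past 1.5-fold in low-Cnr1 Adarb2 nuclei, beside 15.5% of 789 genes. In CCK-like nuclei 1 of 3 was, beside 19.0% of 520 genes: Cdh10, at -0.73 with an interval from -1.54 to 0.03.

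**Figure D4:**
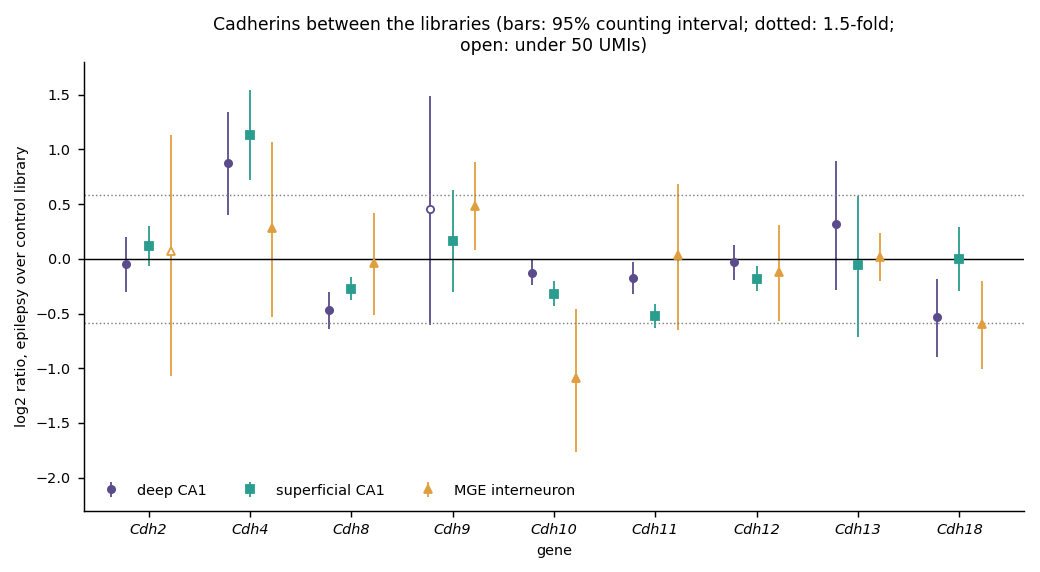
Log2 ratio of the epilepsy to the control library for each cadherin gene in deep-like CA1 (circles), superficial-like CA1 (squares) and MGE-like interneuron nuclei (triangles), with 95% counting intervals, dotted lines at 1.5-fold and open symbols under 50 UMIs. Cdh4 lies above the upper line in both pyramidal classes, and Cdh10 and Cdh18 lie below the lower line in MGE-like nuclei.

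Among the catenins and partners, Ctnna3 (alpha-T-catenin), a link from cadherin complexes to actin, was higher in the epilepsy library in the 5 neuron classes compared. It stood at 106 and 220 CPM in deep-like nuclei, a log2 ratio of 1.05 (0.81 to 1.29), and at 119 and 271 in superficial-like nuclei, 1.19 (1.02 to 1.36). In MGE-like, low-Cnr1 Adarb2 and CCK-like nuclei its ratios were 0.92 (0.43 to 1.42), 1.49 (0.82 to 2.17) and 0.87 (0.01 to 1.74). Oligodendrocyte-like nuclei held far more of it, 1084 and 1212 CPM, and microglia-like nuclei had 79.8 (8 UMIs) and 372 (21 UMIs). The 6 oligodendrocyte markers summed to 142 and 142 CPM in deep-like nuclei, 89.8 and 126 in superficial-like and 155 and 90.9 in MGE-like nuclei, with at most 1 of 6 at 0. In CCK-like nuclei that sum was 146 and 140 CPM, with 1 and 2 of 6 at 0. In low-Cnr1 Adarb2 nuclei, where the Ctnna3 ratio was 1.49, the sum was 41.0 CPM in control, with 1 of 6 at 0, and 218 in epilepsy, with 0 at 0, so there the oligodendrocyte markers moved with Ctnna3. Their part in the Ctnna3 difference was not tested. In deep-like nuclei 1 of 11 measurable partners was past 1.5-fold higher, beside 5.32% of all genes tested, which is too few to set the list apart. In superficial-like nuclei it was 4 of 15, beside 7.14%: Ctnna3, Plekha7 at 0.88 (0.29 to 1.47), the protease gene Furin at 0.69 (0.15 to 1.23) and the p120 relative Arvcf at 0.59 (0.06 to 1.13). The last 3 each rest on 48 to 64 UMIs per library. Vcl was higher in deep-like nuclei by 0.32 (0.08 to 0.56). The medians of the partner list were -0.07 in deep-like and 0.08 in superficial-like nuclei. Of the further classical cadherins, Cdh22 was past 1.5-fold in superficial-like nuclei at 0.76 (0.18 to 1.35), and Cdh20 in low-Cnr1 Adarb2 nuclei at 0.80 (0.12 to 1.47).

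The genes whose profile was most like that of each member were ranked by Pearson's r of log2(CPM + 10) over 20 points, 1 for each class and library with at least 30 nuclei, among 4271 genes. The points share 2 libraries and differ in depth, so r is a description. Cdh12 had the closest, with Nebl at 0.94 and Gria1, an AMPA receptor subunit, at 0.91, then Rbfox1, a splicing factor, at 0.88. Cdh8 followed Tmtc1 at 0.93, Ppfia2 (liprin-alpha-2) at 0.88 and the semaphorin receptor Plxna4 at 0.87. Cdh9 went with Ndrg4 (0.90), Rps6ka2 (0.86) and Anxa6 (0.85). For Cdh13 they were Ptpre (0.85), Car10 (0.83) and Tmem108 (0.80), for Cdh11 the potassium channel Kcnq5 (0.84), Tecpr1 (0.80) and Myt1l (0.79), and for Cdh4 the presynaptic receptor Nrxn3 (0.84), March11 (0.79) and Ptpn9 (0.77). Cdh2 went with Dnajc10 (0.87), Ltn1 (0.74) and Cdc73 (0.73), Cdh10 with Zfp462 (0.76), Zdhhc2 (0.75) and Igsf9b (0.75), and Cdh18 with Hmgn3 (0.75), Dnajc15 (0.73) and Trpc6 (0.70). Among members the highest r was 0.80, between Cdh13 and Cdh18. The chromosome 15 neighbours Cdh9 and Cdh10 had r of -0.73, and Cdh2 and Cdh12 had -0.75.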

How the data were processed

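The authors deposited raw UMI counts per gene and nucleus, 1 matrix for control and 1 for epilepsy, without normalization. Per the labels' protocols, 15000 sorted nuclei per sample were loaded with 10x 3' v2 chemistry and read as 75 bp pairs. The build GRCm38 (mm10) and the tools Cell Ranger 2.2.0 and FastQC are named per the submitters' processing notes. The sources do not state if intron reads entered the counts, which can alter the level of long genes in nuclei. The filter of at least 200 genes and under 5% mitochondrial UMIs removed 0 nuclei. Scrublet marked 0.382% and 0.390% of nuclei, too few to be a working call, so the 3% of highest score were removed (110 and 93). With scanpy 1.11.5 and leidenalg 0.10.2, 2000 variable genes without the cadherins and their partners, standardised within each library, gave 30 principal components, 20 neighbours and clusters at resolution 1. Pyramidal nuclei and interneurons were clustered again. Names follow marker lists, with thresholds set after clusters had been seen, and interneuron subtypes and pyramidal sublayers are rebuilt, not the authors'.

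Counts were summed per class and library. Levels are CPM with exact Poisson 95% intervals, ratios carry exact conditional binomial intervals, and shares of nuclei were also taken after thinning to 1000 UMIs. Nuclei under 1000 UMIs were dropped from thinned values. That kept 1164 of 1169 and 957 of 973 superficial-like nuclei. It kept 75 of 226 and 52 of 313 oligodendrocyte-like and 30 of 36 and 16 of 39 microglia-like nuclei. The thinned glia-like shares are thus those of their deeper nuclei. Intervals and zero limits (3 counts) cover counting error only. A gene counts as past 1.5-fold with at least 50 UMIs over the groups compared, and classes need 30 nuclei per library. Conditions have 1 library each, so no p-value was made. Intervals and ratios were tried on counts simulated with counting error alone, so spread between nuclei or libraries was not covered. There 4.58%, 3.57% and 7.71% of unchanged genes passed 1.5-fold in deep-like, superficial-like and MGE-like nuclei. All 9 members are named. From the partner and cadherin lists up to 4 genes per comparison are named by the interval bound nearest 0, and 3 genes per member by correlation. The members and lists were chosen with earlier results of these data known. Alternatives included edgeR 4.0.16 TMM factors. Sequences are from RefSeq.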

Additional observations from a re-analysis of the deposited data

Results flagged for a closer look

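Cdh11 went in opposite directions between the sublayers of the 2 libraries. Its log2 ratio of superficial-like to deep-like nuclei was 0.16 (0.06 to 0.26) in control, from 528 and 473 CPM, and -0.19 (-0.34 to -0.04) in epilepsy, from 367 and 419 CPM. Neither interval reaches 0, both ratios are small, and with 1 library per condition the difference between them was not tested. In other processings the epilepsy ratio ran from -0.31 to 0.08, the latter with clusters at resolution 0.5, while the control ratio ran from 0.04, when thinned to 1000 UMIs, to 0.22. The epilepsy interval holds 0 at resolution 0.5, with at least 500 genes, with doublets kept and when thinned, and the control interval with at least 500 genes, when thinned and with sublayers split at the median marker score.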

How the results depend on the processing

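No replicate could be left out. No paired analysis was possible because each condition has 1 library and the labels give no replicate numbers. No value past 1.5-fold changed direction. Over 9 alternatives the log2 ratio of epilepsy to control for Cdh4 ran from 0.33 (thinned to 1000 UMIs) to 1.04 in deep-like and from 1.03 to 1.33 in superficial-like nuclei, and that of Cdh10 in MGE-like nuclei from -1.27 (thinned, 40 UMIs) to -1.02. Cdh18 in MGE-like nuclei was past 1.5-fold in 4 of 9, and in deep-like nuclei, short of it here, in 6 of 9. Between sublayers Cdh10 was past 1.5-fold in all 9 in both libraries and Cdh13 in 8 of 9 in each, the exception being thinning. Cdh9 was past it in 8 of 9 in control and 6 of 9 in epilepsy, since it fell under 50 UMIs when thinned (33 and 35 UMIs) and, in epilepsy, with doublets kept (49) and at resolution 0.5 (33). The cause of these moves was not tested.

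Counts of members past the fold between conditions moved as follows. In deep-like nuclei (1 here) it was 2 with at least 500 genes, with doublets kept, with cadherin genes in the clustering, with no centring and at resolution 0.5, and 0 with a minimum of 200 UMIs or at 2-fold. In superficial-like nuclei (1) it was 2 with no centring or TMM factors and 0 at resolution 0.5, where Cdh4 had under 50 UMIs. In MGE-like nuclei (2) it was 1 with at least 500 genes, doublets kept, cadherin genes in the clustering, no centring, a minimum of 200 UMIs or 2-fold, and 0 when thinned. In low-Cnr1 Adarb2 nuclei (0) it was 2 with a minimum of 20 UMIs. In CCK-like nuclei (1) it was 0 with no centring, equal weight per nucleus, thinning, a minimum of 200 UMIs or 2-fold, and 2 with a minimum of 20 UMIs. Between sublayers, thinning gave 2 in control (4 here), 1 in epilepsy (3 here) and 1 in both (3 here).

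Counts of partners and further cadherins moved too. In deep-like nuclei (1) it was 2 with no centring or a minimum of 20 UMIs. In superficial-like nuclei (5) it was 3 with at least 500 genes, doublets kept, no centring or resolution 2.0, 2 with cadherin genes in the clustering or at resolution 0.5, and 1 when thinned, with 200 UMIs or at 2-fold. In MGE-like nuclei (1) it was 2 with 20 UMIs and 0 when thinned, with 200 UMIs or at 2-fold. In low-Cnr1 Adarb2 nuclei (2) it was 1 at 2-fold and 0 when thinned or with 200 UMIs. In CCK-like nuclei (1) it was 4 with 20 UMIs and 0 when thinned, with 200 UMIs or at 2-fold. TMM factors shifted every log2 ratio by -0.14 in low-Cnr1 Adarb2 nuclei, -0.10 in CCK-like and superficial-like, -0.08 in MGE-like and -0.04 in deep-like nuclei.

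Depth also limits the values of the 14 epilepsy granule-like nuclei and of the small interneuron clusters, and no condition difference has a replicate check.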

Other observations

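Glia-like and CA2/CA3 pyramidal-like nuclei had the following cadherin levels, and the part of free RNA in them was not tested. Astrocyte-like nuclei (26 and 28) had Cdh10 at 974 CPM (670 to 1367) and 923 (591 to 1373) and Cdh2 at 295 and 500 CPM, with 0 UMIs of Cdh9 and Cdh13 in either library. Oligodendrocyte precursor-like nuclei (24 and 38) had Cdh13 at 1031 CPM (27 UMIs) and 1034 (32 UMIs), against 23.3 and 13.0 in oligodendrocyte-like nuclei. Cdh10 was above its pooled pyramidal level in oligodendrocyte-like nuclei, at 121% and 120% of it, where the CA1 pyramidal markers were at 58.4% and 57.3%. CA2/CA3 pyramidal-like nuclei (42 and 64) had Cdh13 at 160 and 146 CPM and Cdh9 at 83.6 and 70.4, with Cdh18 at 265 and 101, a log2 ratio of epilepsy to control of -1.40 (-2.26 to -0.58).

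The small interneuron clusters 8, 4 and 7 were singled out after their values were seen. Cluster 8 (13 and 3 nuclei, led by Ntng1) had Cdh8 at 2123 and 1179 CPM, with a Cdh8 UMI in 100% of the control nuclei, and Cdh11 at 881 and 786. Cluster 4 (13 and 12 nuclei, with Vip) had Cdh10 at 1002 and 1345 CPM. Cluster 7 (11 and 10 nuclei, with Ndnf) had Cdh10 at 701 and 551 CPM.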
